A study of Mus musculus with 12 samples.

Results

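The genes described here are 38 genes of protein folding in the endoplasmic reticulum (ER) and of the unfolded protein response, listed by name and matched to Ensembl genes through GENCODE M21 symbols. All 38 were found among the 55487 genes of the count table (Ero1b stands there under its older symbol Ero1lb). The list names genes by function and applies no cut-off on measured values, but it was chosen with earlier results of these data known. The ER folds the proteins that a cell secretes or places in its membranes. When unfolded proteins build up, the sensors IRE1 (gene Ern1), ATF6 and PERK are set free from the chaperone BiP (gene Hspa5), and IRE1 splices the Xbp1 mRNA into the form that encodes an active transcription factor. ATF6 and XBP1 then raise the genes of chaperones, disulfide enzymes, ER-associated degradation (ERAD, which returns misfolded proteins to the proteasome) and the translocon, the channel through which new proteins enter the ER. Secretory cells such as hepatocytes and collagen-making fibroblasts keep many of these genes at high levels. Gene counts do not show Xbp1 splicing, so the levels of Xbp1 given here add both forms.

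RNA sequencing was done on 12 mouse libraries in 4 groups of 3. The recipient cells were a wild-type mouse hepatoma line, Hepa1, and mouse embryonic fibroblasts (MEFs) in primary culture, whose genotype is given as Bach1 knockout (Bach1-/- pMEFs). BACH1 is a repressor of heme, iron and antioxidant genes. Each was kept for 4 days in medium that immortalized MEFs (iMEFs) had conditioned for 48 h, either control iMEFs or iMEFs with re-expressed Bach1, which the labels call ferroptotic, after the iron-dependent form of cell death. All 4 groups also received 0.1 mM 2-ME (2-mercaptoethanol, a thiol reductant) and 0.4 mg/mL vitamin E, a lipid antioxidant, in DMEM with 10% fetal bovine serum, and fresh conditioned medium every day. The title of the series links BACH1 to FGF21 that ferroptotic cells secrete, so the comparison of media asks what such medium does to the recipient cells. Line, tissue of origin and Bach1 genotype differ together between Hepa1 and MEFs and cannot be told apart. Whether the 3 libraries of a group stem from separate cultures is not in the labels, and p-values then measure only a spread that may be technical.

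Libraries held 18.58 to 23.4 M reads assigned to genes. Bach1 stood at 139 to 147 plain CPM (counts after scaling each library to the same total) in Hepa1 in control medium and at 72.6 to 82.1 CPM in MEFs in control medium, and since the labels do not name the deleted exons, these counts over the whole gene do not check the deletion. Of 14 hepatocyte markers, 4 had at least 100 reads over the 3 Hepa1 control libraries, namely Trf with 23484, Afp with 3470, Alb with 1988 and Foxa2 with 1084. Another 4 (Ttr, Apoa1, Ahsg and Serpina1a) had 0 reads and Hnf4a had 1, so part of the defining hepatocyte markers was absent. Of 12 fibroblast markers, 5 had at least 100 reads in these libraries, led by Col1a1 with 87993, while Col1a2 had 38 and 4 (Thy1, Twist2, Lum and Fap) had 0. The summed level of 14 hepatocyte markers ran from 503 to 520 CPM in Hepa1 in control medium and from 1669 to 1820 CPM in ferroptotic medium. That of 12 fibroblast markers ran from 1814 to 2132 and from 2746 to 2815 CPM in Hepa1, and from 45132 to 47054 and from 38533 to 39826 CPM in MEFs. Macrophage markers summed to at most 47.2 CPM in any library, and Ptprc, the pan-leukocyte marker, was at 0 in all of them. The hepatocyte and fibroblast sums moved with the medium, but single markers differed. In ferroptotic medium the 3 Hepa1 libraries held 18220 reads of Alb and 78840 of Trf, while Foxa2 hardly moved (1091). In MEFs Col1a1 went from 1441547 to 1246971 reads, but Dcn (238 to 877), Lum (117 to 544) and Fap (204 to 560) went up. Dcn had more reads in Hepa1 in control medium (17074) than in MEFs. The part of these markers in the results below was not tested. In bulk RNA, fewer cells of a type and less RNA per cell cannot be told apart.

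The ER stress element (ERSE) is the best known promoter motif of these genes. ATF6 and XBP1 bind its CCACG end, and the factor NF-Y binds its CCAAT end. In RefSeq promoters of GRCm38.p6, which run from 250 bases before to 50 bases after the annotated start, 32 of the 38 genes had an entry. Hyou1, Derl1, Atf6, Manf, Ero1l and Sec61a1 had none. An exact ERSE, CCAAT and CCACG separated by 9 bases of any kind, was searched on both strands. It was found in the promoters of 10 of the 32 genes (31.2%) and of 37 of all 27025 genes in the table (0.137%), or in 0.119% of all 32851 promoters. The ERSE of 8 genes is written out below, together with the ERSE-II of Herpud1, because these genes carry the results that follow. Each is given 5′ to 3′ on the strand on which the motif reads forward, with 5 bases on either side, and capitals mark the motif.
Hspa5: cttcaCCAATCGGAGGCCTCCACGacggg
Calr: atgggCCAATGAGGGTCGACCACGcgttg
Canx: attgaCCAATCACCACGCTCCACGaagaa
Creld2: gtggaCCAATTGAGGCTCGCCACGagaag
Dnajc3: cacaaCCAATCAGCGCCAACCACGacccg
Pdia6: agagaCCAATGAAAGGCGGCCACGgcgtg
Syvn1: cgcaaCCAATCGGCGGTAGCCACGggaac
Ero1b: ggcggCCAATGAGGCGGGACCACGaggcc
Herpud1: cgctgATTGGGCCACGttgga

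These windows lie at chr2:34772020-34772048 (+ strand) for Hspa5, chr8:84847070-84847098 (+ strand) for Calr, chr11:50325795-50325823 (minus strand) for Canx, chr15:88819515-88819543 (minus strand) for Creld2 and chr14:118937822-118937850 (+ strand) for Dnajc3. They lie at chr12:17266486-17266514 (+ strand) for Pdia6, chr19:6046527-6046555 (+ strand) for Syvn1, chr13:12565677-12565705 (minus strand) for Ero1b and chr8:94386372-94386392 (+ strand) for Herpud1. The motif of Hspa5 begins 65 bases before the RefSeq start, and its window overlaps a GENCODE exon. The motif of Syvn1 ends 26 bases before the start, nearest of all, and a motif of Hsp90b1 begins 212 bases before it, farthest of all. Derl3, an ERAD gene with at most 6 reads in a library, had an ERSE as well.

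Hsp90b1 was the only gene of the list with a pair of copies, and they face each other. The stretch that holds both is 144 bases long and lies at chr10:86705523-86705666 on the minus strand, which is the strand of the gene. Both motifs are in capitals, and the latter reads as an ERSE on the other strand.
Hsp90b1: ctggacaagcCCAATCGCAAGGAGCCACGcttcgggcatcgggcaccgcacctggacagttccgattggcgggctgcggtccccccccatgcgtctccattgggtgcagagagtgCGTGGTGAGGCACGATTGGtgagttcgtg

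Over the 10 genes there were 11 copies of the ERSE. Of these, 6 lie on the strand of the gene and 5 on the other strand, and 5 have the letters GGC somewhere among the 9 middle bases. ERSE-II, ATTGG and CCACG separated by 1 base, was found in Herpud1 and, after the start, in Dnajb11, against 12 of the 27025 genes (0.0444%). The UPRE core TGACGTGG was found in Sec24d alone of the 32 genes, against 193 of the 27025 genes (0.714%). In all, 13 of the 32 genes had at least 1 of the motifs in this window. A match describes the sequence only, and a gene with no match lacks these exact letters in this window.

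**Figure D1:**
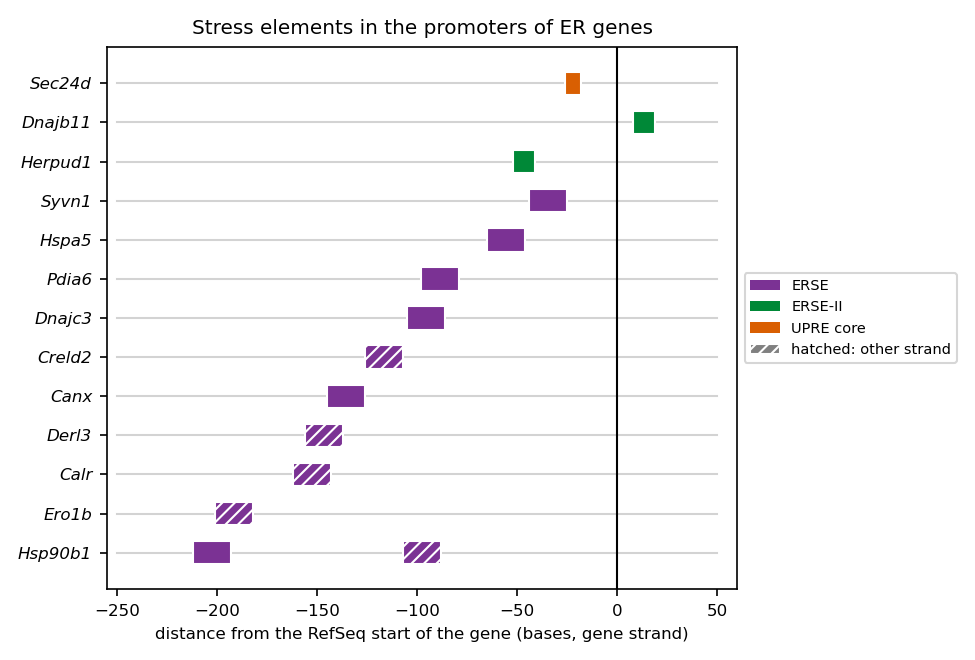
Positions of the motifs in the promoters of the 13 genes that have one, in bases from the RefSeq start, with 1 line per gene. Solid bars read forward on the strand of the gene and hatched bars on the other strand, and the ERSE copies lie between 212 and 26 bases before the start.

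Levels between genes were compared as CPM per kilobase of merged exon, which understates genes whose models include rarely used exons. Hspa5, the gene of BiP, stood first in Hepa1 in control medium at 1867 ± 91.0 CPM per kilobase (SD, n = 3). It was followed there by Hsp90b1, which encodes the ER HSP90 GRP94, at 725 ± 40.7, and by Calr, the gene of calreticulin, at 551 ± 20.9 CPM per kilobase. The protein disulfide isomerase genes P4hb and Pdia3 came next at 512 ± 6.78 and 388 ± 12.9 CPM per kilobase. The order differed in MEFs in control medium, where Calr came first at 574 ± 8.40 CPM per kilobase. P4hb followed at 473 ± 7.48, Pdia3 at 355 ± 5.97, Hspa5 at 273 ± 2.74 and Hsp90b1 at 265 ± 2.16 CPM per kilobase. Several neighbours in these orders lay within their spread, such as Pdia6 and Pdia4 in Hepa1 at 209 ± 4.48 and 203 ± 5.59 CPM per kilobase. Xbp1, Hyou1 and Sdf2l1 in Hepa1 in control medium, at 88.9 ± 2.02, 88.8 ± 2.68 and 88.7 ± 11.4, are further examples. At the low end, Derl3, Sec61g and Ero1b were under 2 CPM per kilobase in all 4 groups.

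The 38 genes took 2.30 to 2.44% of all assigned reads in Hepa1 in control medium and 1.20 to 1.22% in MEFs in control medium. Hspa5 alone held 32.4 to 33.5% of these reads in Hepa1 and 9.38 to 9.69% in MEFs. In ferroptotic medium the share of all reads was 2.14 to 2.19% in Hepa1 and 1.10 to 1.11% in MEFs, below every control library of the same cell type. The other 37 genes together took 1.56 to 1.62% of reads in Hepa1 in control medium and 1.58 to 1.61% in ferroptotic medium, and these ranges overlap, while Hspa5 made up 26.1 to 26.2% of the list's reads in ferroptotic medium. In MEFs the other 37 genes took 1.08 to 1.10% in control medium and 0.981 to 0.990% in ferroptotic medium, and Hspa5 made up 10.6 to 11.0% of the list's reads in ferroptotic medium. On normalised counts, which allow for the different make-up of the libraries, the mean shares of the 4 groups were 2.00%, 1.75%, 1.5% and 1.30%, in the order Hepa1 control, Hepa1 ferroptotic, MEFs control and MEFs ferroptotic.

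**Figure D2:**
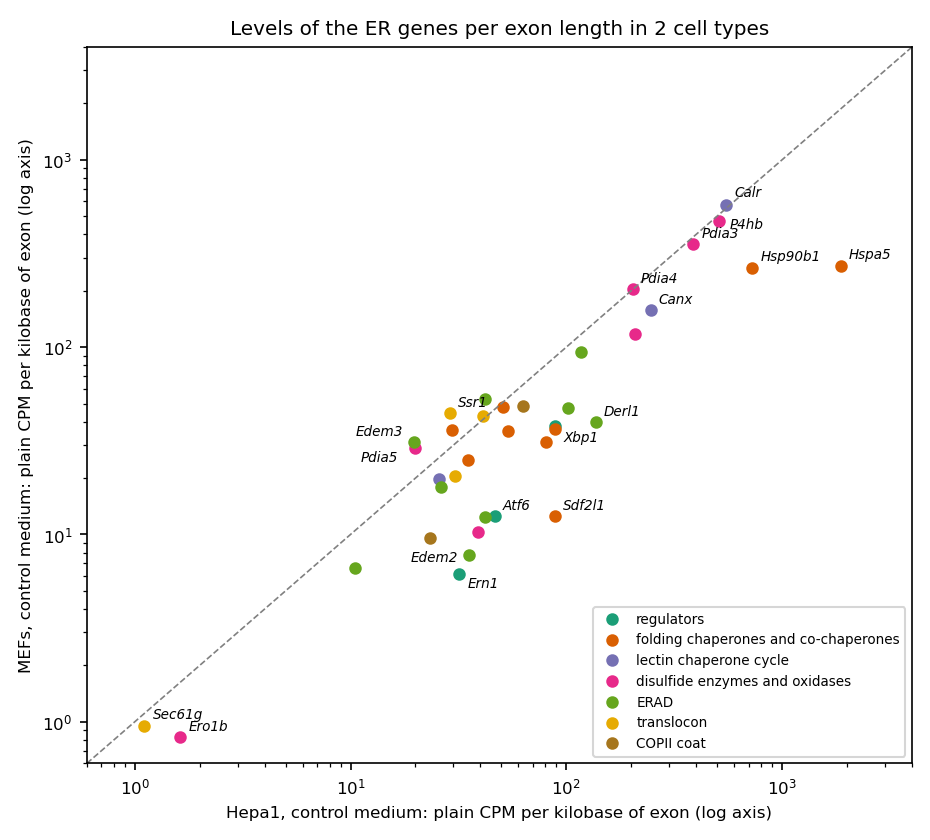
Mean level of 37 of the genes in control medium in Hepa1 (horizontal) and MEFs (vertical), in plain CPM per kilobase of exon on log axes, coloured by role, with Derl3 left out as nearly unread. Hspa5 and Hsp90b1 lie far to the right of the dashed line of equal plain CPM, while Calr and Pdia4 lie on it, and no scaling for library make-up is applied.

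Both cell types were compared in control medium with edgeR's quasi-likelihood test, on counts scaled by TMM (trimmed mean of M values), and a gene was called at an adjusted p under 0.05. In all 4 comparisons 37 of the 38 genes passed the count filter, and Derl3 did not. Of the 37, 14 were higher in MEFs and 17 were higher in Hepa1, and 7 and 13 of these differed at least 1.5-fold. Most genes differ between these cells: 46.0% of all genes tested were called higher in MEFs and 40.7% higher in Hepa1, or 35.2% and 28.2% with at least 1.5-fold. For calls of any size the list was near this background, at 37.8% and 45.9% of its genes. With at least 1.5-fold, its 7 of 37 higher in MEFs lay below the share of all genes. Its 13 of 37 higher in Hepa1 lay above that share, and neither gap was tested. The median log2 difference of the list was -0.021 against 0.077 over all genes tested. With no scaling beyond total counts the median of all genes moved to -0.49, the split of all calls moved from 53.0% to 35.5% higher in MEFs, and the list's counts became 5 higher in MEFs and 28 higher in Hepa1. Directions between the cell types below hold relative to TMM scaling, and those of Dnajb9, Dnajb11, Uggt1, Pdia3, P4hb, Edem1, Os9 and Sec24d turned without it.

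All 3 regulators and 5 of 9 chaperones of the BiP system were higher in Hepa1, and 2 of the chaperones were higher in MEFs. Hspa5 (ENSMUSG00000026864, chr2:34771970-34777547, plus strand) had 6637 ± 368 CPM in Hepa1 and 1432 ± 25.1 CPM in MEFs in control medium (SD, n = 3, normalised over 12 libraries; log2 difference -2.21, SE 0.042, adjusted p = 2.18e-39, edgeR). Sdf2l1, a partner of the BiP co-chaperones, was at 82.6 ± 11.0 and 17.3 ± 0.470 CPM, the furthest apart of the list (log2 difference -2.26). Ern1, the gene of the sensor IRE1, was at 219 ± 5.32 and 62.6 ± 3.02 CPM (-1.81). Atf6 and Xbp1 were also higher in Hepa1, with log2 differences of -1.33 and -0.66, so all 3 regulators were. So were Hsp90b1 (-0.89), Manf (-0.81) and Hyou1 (-0.72), all 3 of them in the BiP and GRP94 folding machinery. None of these directions turned under any alternative tried. The co-chaperone genes Dnajc3 and Dnajb11 went the other way and were higher in MEFs by 0.85 and 0.48, the latter turning to -0.085 without scaling.

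Other roles split or went the other way. Edem3, an ERAD mannosidase gene, was at 106 ± 2.93 CPM in Hepa1 and 247 ± 1.96 CPM in MEFs (log2 difference 1.22, SE 0.037, adjusted p = 1.27e-31, edgeR), whereas its paralogue Edem2 differed by -1.63 in favour of Hepa1. Ssr1, a subunit of the translocon-associated complex, was higher in MEFs by 1.19, and Pdia5, a disulfide isomerase gene, by 1.11. Within ERAD, Sel1l (0.89) was higher in MEFs, and its partner ubiquitin ligase gene Syvn1 (-1.20) was higher in Hepa1. The oxidase gene Ero1l (-1.36) and the derlin gene Derl1 (-1.22) were higher in Hepa1. Calr and Pdia4 were higher in MEFs by 0.62 and 0.57, but without scaling the differences were 0.057 and 0.0055 and the calls were lost. Of 6 genes not called, 3 passed the test when a library was left out: Dnajb9 without Hepa1 control replicate 2 (0.13), Canx without Hepa1 control replicate 1 or 3 or MEF control replicate 3 (-0.098, -0.085 and -0.085), and Sec61g without Hepa1 control replicate 2 or MEF control replicate 3 (0.43 and 0.44).

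In Hepa1 cells the ferroptotic medium parted the list. All 4 translocon genes rose and so did most ERAD genes, while BiP, GRP94, calreticulin and IRE1 fell. Of 37 genes tested, 18 rose and 9 fell (edgeR, adjusted p under 0.05), against 29.3% of all genes tested rising and 28.8% falling. The rises came to 48.6% of the list, above this share, and the falls to 24.3%, below it, and neither gap was tested. Changes were small: 0 genes rose and 0 fell at least 1.5-fold, against 8.87% and 6.00% of all genes, and the same counts of 0 came from edgeR at an unadjusted p under 0.05, from DESeq2 and from limma-voom. The median log2 change of the list was 0.065, against 0.0045 over all genes tested. For all 27 called genes the values of the control and ferroptotic libraries did not overlap. The share of all genes without overlap is not given here, so this describes the values and does not set the list apart.

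**Figure D3:**
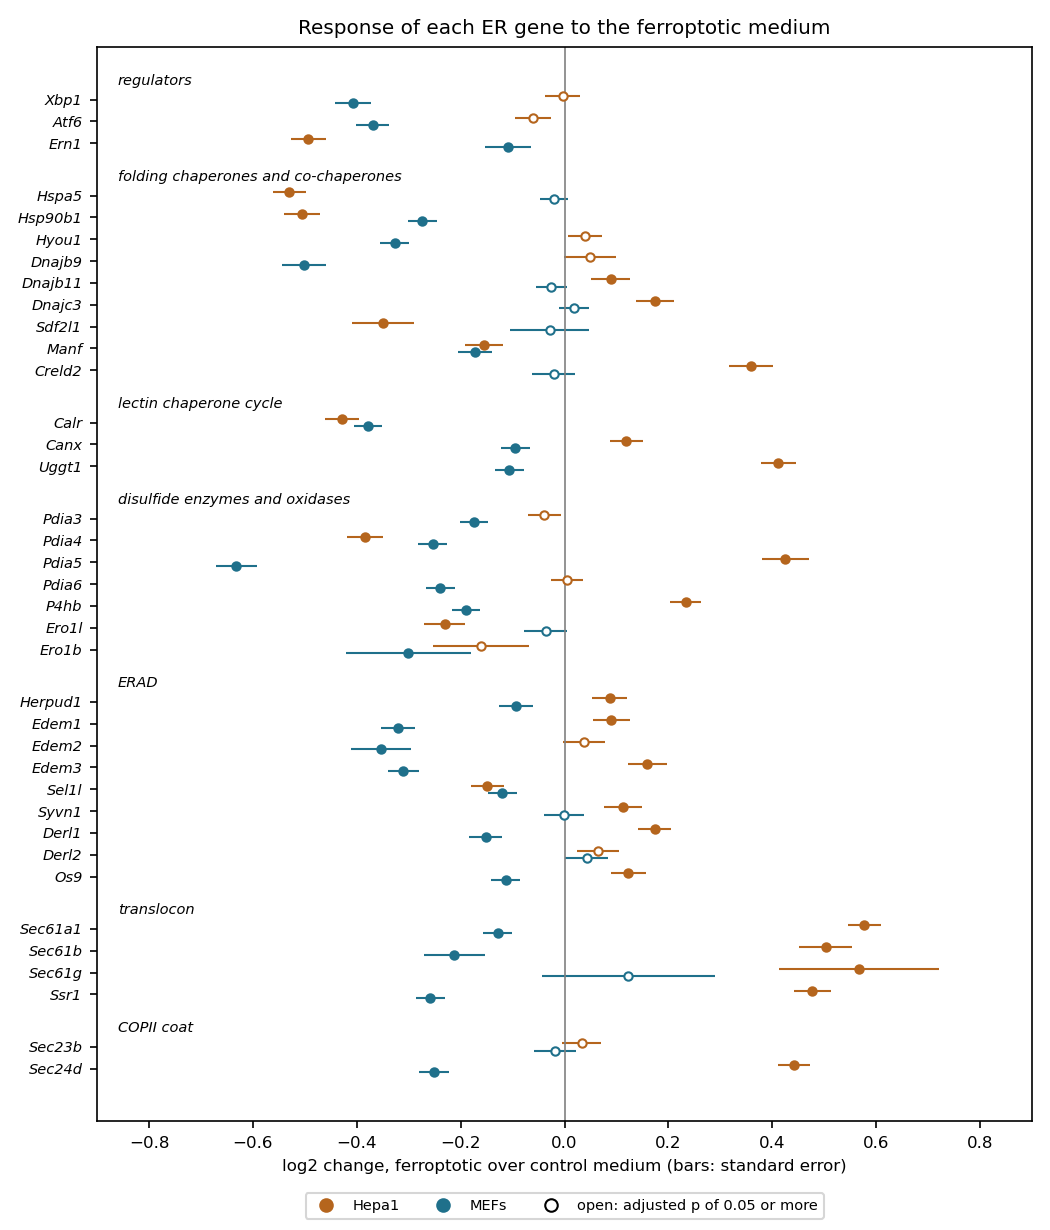
Log2 change of 37 genes in ferroptotic against control medium in Hepa1 (brown) and MEFs (blue), grouped by role. Bars are the standard error derived from the F-test. Filled points passed an adjusted p of 0.05 in edgeR, and the blue points are filled on the left only, while the brown ones are filled on both sides.

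The translocon genes had the largest rises in Hepa1. Sec61a1 (ENSMUSG00000030082, chr6:88503579-88518905, minus strand), which encodes the pore of the channel, was at 282, 285 and 283 CPM in the control libraries and at 421, 418 and 428 CPM in the ferroptotic ones (log2 change 0.58, SE 0.032, adjusted p = 4.74e-15). Ssr1 (ENSMUSG00000021427, chr13:37966605-37994217, minus strand) was at 294, 323 and 302 CPM and then at 429.7, 426 and 423 CPM (log2 change 0.48, SE 0.035, adjusted p = 2.8e-12). In both genes the lowest ferroptotic library stood well above the highest control library. The channel's small subunit genes are Sec61b and Sec61g. Sec61g was read far less, at 1.11 ± 0.106 CPM per kilobase in Hepa1 control medium against 30.5 ± 1.73 for Sec61b and 28.9 ± 1.43 for Ssr1. Sec61b was at 40.3, 40.8 and 37.1 CPM in control medium and at 55.7, 54.5 and 57.3 CPM in ferroptotic medium (0.50, SE 0.051). Sec61g was at only 2.52, 3.05 and 2.74 and then 3.80, 3.92 and 4.59 CPM (0.57, SE 0.15), again with no overlap. The rises of Sec61a1 and Sec61g lay just under the 1.5-fold line (log2 of 0.58), and leaving out Hepa1 control replicate 2, ferroptotic replicate 1 or ferroptotic replicate 2 put Sec61g over it at 0.64, 0.62 and 0.60. Of the COPII coat genes, which bud cargo from the ER, Sec24d rose by 0.44 from 407 ± 3.55 to 552 ± 7.62 CPM (SD, n = 3), and Sec23b was not called (0.033).

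Of 9 chaperone genes, 3 rose (33.3%) and 4 fell (44.4%) in Hepa1, against 29.3% and 28.8% of all genes tested. Neither gap was tested. Hspa5 was at 7547, 8301 and 8252 CPM in the control libraries and at 5635, 5501 and 5553 CPM in the ferroptotic libraries (log2 change -0.53, SE 0.032, adjusted p = 4.2e-14). Hsp90b1 was at 2802, 3144 and 2979.7 and then at 2155, 2073 and 2059 CPM (log2 change -0.51, SE 0.035, adjusted p = 6.11e-13). These were the most abundant transcripts of the list per kilobase in Hepa1 in control medium, and both fell in every ferroptotic library below every control library. Sdf2l1 went from 100.2, 86.7 and 113 CPM to 81.4, 76.1 and 77.8 CPM (-0.35, adjusted p = 1.32e-05, edgeR), with a wide spread in control medium but no overlap. Manf, an ER protein that is also secreted under stress, went from 273, 289.6 and 302 to 264, 259 and 254 CPM (-0.15). Manf shares exon sequence with Rbm15b on its own strand and with Dcaf1 on the other, and Hsp90b1 overlaps 1810014B01Rik on the other strand, and reads of such pairs were not told apart.

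The other chaperone genes rose or were not called. Creld2, an ER-stress-induced disulfide isomerase-like gene, was at 71.4, 74.8 and 77.6 CPM and then at 97.0, 95.3 and 94.5 CPM (log2 change 0.36, SE 0.042, adjusted p = 3.13e-08). Dnajc3, the gene of the co-chaperone P58IPK, rose by 0.17. Dnajb11, which encodes the co-chaperone ERdj3, rose by 0.089 (adjusted p = 0.0422), a call lost without control replicate 1, ferroptotic replicate 1 or ferroptotic replicate 3 (adjusted p = 0.203, 0.0977 and 0.233, edgeR) with the replicate block (0.0554) and in DESeq2 (0.0819). Dnajb9, the gene of ERdj4 and a frequently used readout of XBP1, was at 81.7, 97.4 and 92.1 and 97.9, 91.1 and 91.6 CPM, and these groups overlapped (0.049, SE 0.050, adjusted p = 0.423, edgeR). Hyou1, the gene of the BiP exchange factor GRP170, was at 654, 630.0 and 674 and 686, 672 and 655 CPM, also overlapping (0.040, adjusted p = 0.308, edgeR), and without scaling its change of 0.086 was called.

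Of the regulators, Ern1 alone was called in Hepa1. It was at 264, 272 and 259.7 CPM in the control libraries and at 189, 185 and 191 CPM in the ferroptotic ones (log2 change -0.49, SE 0.034, adjusted p = 8e-13), with no overlap. Xbp1 (ENSMUSG00000020484, chr11:5520659-5525893, plus strand) was at 288, 290.1 and 303 and 293, 295 and 291 CPM, with the ferroptotic values inside the control range (-0.0035, SE 0.033, adjusted p = 0.938, edgeR). Atf6 was at 415, 458 and 438 and 423, 414 and 419.7 CPM (-0.061, adjusted p = 0.142, edgeR), and without control replicate 1 its change of -0.099 passed the test (adjusted p = 0.0187).

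In the lectin cycle, in which calnexin and calreticulin hold glycoproteins until they are folded, the members moved apart. Calr (ENSMUSG00000003814, chr8:84841850-84846934, minus strand) was at 1538, 1637 and 1671 CPM and then at 1223, 1172 and 1205 CPM (log2 change -0.43, SE 0.033, adjusted p = 6.01e-12), with no overlap. Its membrane-bound relative Canx rose by 0.12, from 1172 ± 42.5 to 1273 ± 18.6 CPM. Uggt1, the gene of the enzyme that sends unfolded glycoproteins back into the cycle, rose by 0.41, from 335 ± 14.5 to 445 ± 3.21 CPM.

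Of 7 disulfide enzyme genes, 2 rose and 2 fell in Hepa1 (28.6% each), near the 29.3% and 28.8% of all genes tested. Pdia5 was at 58.1, 55.3 and 54.7 and then at 77.7, 74.5 and 73.7 CPM (0.43, SE 0.045), and P4hb, the gene of the main protein disulfide isomerase, rose by 0.23. Pdia4, which encodes ERp72, was at 477, 502 and 507 and then at 395, 371 and 374 CPM (-0.38, SE 0.034), and the oxidase gene Ero1l fell by 0.23 on the log2 scale. Groups did not overlap in any of these 4 genes. Pdia3, Pdia6 and Ero1b had changes of -0.039, 0.0046 and -0.16 and were not called.

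Of 9 ERAD genes tested, 6 rose in Hepa1 (66.7%) and 1 fell (11.1%), against 29.3% and 28.8% of all genes tested. The rises were small. Derl1 (0.17), Edem3 (0.16), Os9 (0.12) and Syvn1 (0.11) had the larger ones, and Sel1l, the adaptor of the SYVN1 ligase, fell by 0.15 on the log2 scale. Herpud1, a scaffold of that ligase, was at 238, 240.3 and 248 and then at 256, 255 and 261 CPM (0.087, adjusted p = 0.0278, edgeR). The groups did not overlap, yet the call was lost without control replicate 1 or without any 1 of the 3 ferroptotic libraries (adjusted p from 0.0658 to 0.131). The call of Edem1 (0.090) was lost without control replicate 1 or 3 or ferroptotic replicate 1 or 2 (adjusted p from 0.0539 to 0.182) and in DESeq2 (0.0598), and that of Syvn1 without ferroptotic replicate 1 (0.0959). Edem2 and Derl2 were not called.

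**Figure D4:**
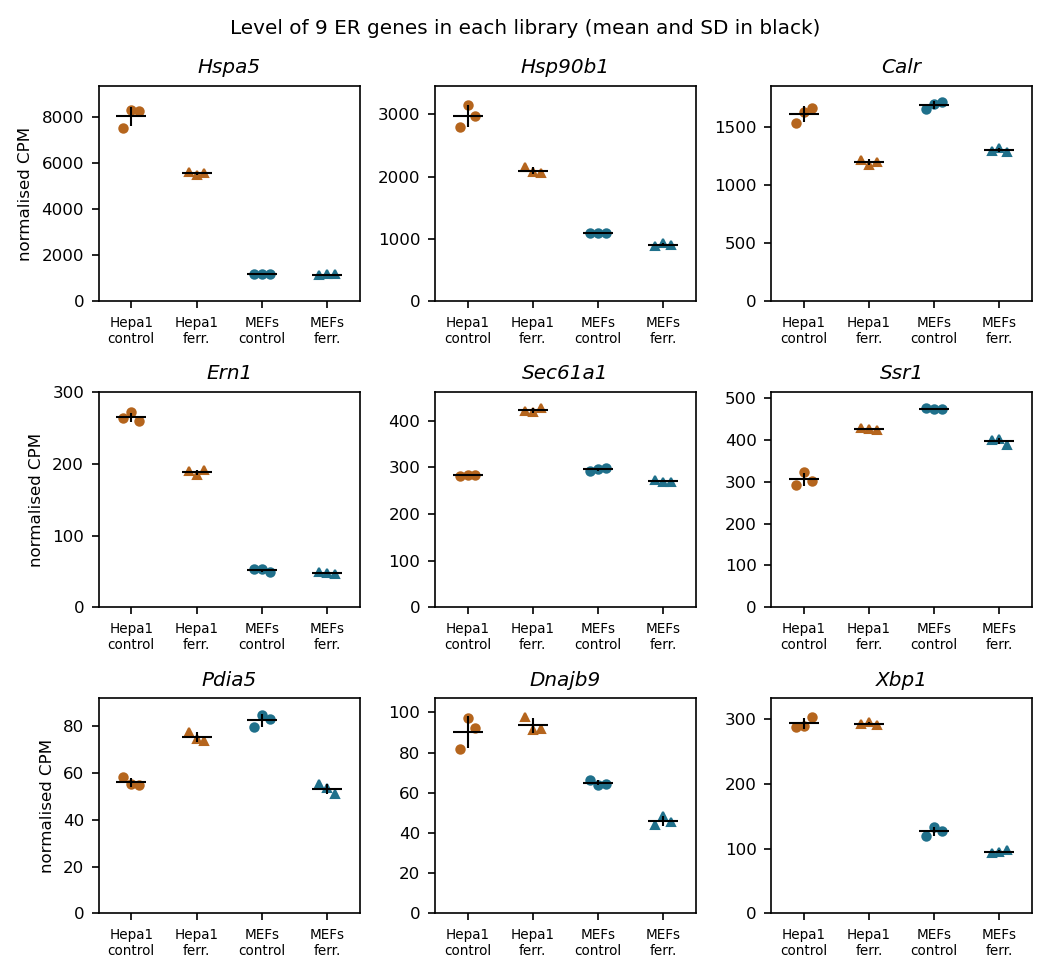
Level of 9 of the genes in every library, as CPM normalised within each cell type, with circles for control and triangles for ferroptotic medium and the mean and SD in black. Hspa5, Hsp90b1, Calr and Ern1 are lower and Sec61a1, Ssr1 and Pdia5 higher in ferroptotic medium in Hepa1. In MEFs all 9 but Hspa5 are called lower, with overlapping groups for Ern1.

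In MEFs most of the list was lower in ferroptotic medium, and no gene of it rose. Of 37 genes tested, 27 fell and 0 rose (edgeR, adjusted p under 0.05), against 27.2% of all genes tested falling and 27.8% rising. The falls reached 73.0% of the list. At least 1.5-fold, 1 gene fell and 0 rose, against 5.89% and 9.06% of all genes, so the changes were frequent but small. The count of 0 rises was the same at an unadjusted p under 0.05, with DESeq2 and with limma-voom, and 3 of the genes had a change above 0 of any size. The median log2 change was -0.17, against 0.0033 over all genes tested. With no scaling beyond total counts the median of all genes was 0.072, the split of all calls moved from 50.5% to 63.8% rising, 19 genes of the list fell and 2, Dnajc3 and Derl2, rose. The calls lost were those of Ern1, Canx, Uggt1, Ero1b, Herpud1, Sel1l, Os9 and Sec61a1.

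The regulators all fell in MEFs. Xbp1 was at 119, 133 and 128 CPM in the control libraries and at 93.9, 95.3 and 97.4 CPM in the ferroptotic libraries (log2 change -0.41, SE 0.034, adjusted p = 4.84e-15). Atf6 was at 119, 119 and 116 and then at 91.2, 90.2 and 92.6 CPM (log2 change -0.37, SE 0.032, adjusted p = 1.67e-14). For both, every ferroptotic library lay below every control library. Ern1 was at 52.9, 53.1 and 48.9 and 49.5, 47.6 and 46.6 CPM, and here the groups overlapped (-0.11, adjusted p = 0.0309, edgeR). Its call was lost without control replicate 1 or 2, without ferroptotic replicate 2 or 3 (adjusted p from 0.0683 to 0.138) and in DESeq2 (0.106).

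Among the chaperones 4 of 9 fell (44.4%), against 27.2% of all genes tested. Dnajb9 (ENSMUSG00000014905, chr12:44205559-44210326, minus strand) was at 66.6, 64.1 and 64.4 CPM and then at 43.8, 48.5 and 45.5 CPM (log2 change -0.50, SE 0.042, adjusted p = 4.86e-15), and the groups lay far apart. Hyou1 was at 266, 270.3 and 275 and then at 219, 215 and 213 CPM (-0.33, SE 0.028). Hsp90b1 was at 1098, 1103 and 1089 and then at 892, 933 and 897 CPM (-0.27, SE 0.027). Neither Hyou1 nor Hsp90b1 had overlapping groups. Manf fell by 0.17 on the log2 scale, from 110.4, 115 and 111 to 96.9, 102 and 99.9 CPM.

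Other genes of the BiP system showed little change in MEFs. Hspa5 was at 1174, 1201 and 1169 CPM in control medium and at 1144, 1169 and 1179 CPM in ferroptotic medium, and the groups overlapped (-0.021, SE 0.027, adjusted p = 0.534, edgeR). Sdf2l1 was at 14.2, 13.9 and 14.7 and 14.6, 12.2 and 15.0 CPM (-0.029, adjusted p = 0.773, edgeR). Creld2 was at 51.1, 49.3 and 49.9 and 49.9, 48.3 and 49.9 CPM (-0.021, adjusted p = 0.696, edgeR). Both overlapped between media, as did Dnajb11 (-0.025) and Dnajc3 (0.018).

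All 3 lectin cycle genes fell in MEFs and so did 6 of 7 disulfide enzyme genes. Calr was at 1660.0, 1699 and 1721 CPM and then at 1299, 1324 and 1287 CPM (log2 change -0.38, SE 0.027, adjusted p = 1.74e-17), with no overlap. Canx and Uggt1 fell by 0.095 and 0.11 on the log2 scale. Pdia5 (ENSMUSG00000022844, chr16:35397312-35490873, minus strand) had the largest fall of the list, from 79.5, 84.8 and 83.2 CPM to 55.3, 53.6 and 50.9 CPM (log2 change -0.63, SE 0.039, adjusted p = 5.66e-20). It alone passed 1.5-fold, and without scaling it fell short of that line. Pdia4 was at 501, 501 and 502 and then at 421, 420.0 and 420.0 CPM (-0.25), nearly the same in the libraries of each group. Pdia6 (-0.24), P4hb (-0.19) and Pdia3 (-0.18) fell as well. Ero1b, read at under 7 CPM, fell by 0.30 on the log2 scale, a call lost without control replicate 1 or ferroptotic replicate 1 or 3 (adjusted p from 0.0513 to 0.178) and in DESeq2 (0.121). Ero1l was the exception at -0.036 (adjusted p = 0.473, edgeR).

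Of 9 ERAD genes tested in MEFs, 7 fell. The mannosidase-like genes Edem2, Edem1 and Edem3 fell together by 0.35, 0.32 and 0.31 on the log2 scale, and Derl1, Sel1l and Os9 by 0.15, 0.12 and 0.11. Herpud1 was at 110.3, 112 and 116 and then at 106, 103 and 108 CPM (-0.094, adjusted p = 0.0116, edgeR), and its call was lost without control replicate 3 (0.0638) or ferroptotic replicate 2 (0.0548). Syvn1 and Derl2 were not called. In the translocon, Ssr1 was at 476, 475 and 474 and then at 399.7, 403 and 389 CPM (-0.26, SE 0.028), and Sec61a1 at 292, 296 and 299 and then at 272, 269.5 and 269 CPM (-0.13, SE 0.028). Neither overlapped. Sec61b was at 24.4, 28.9 and 27.0 and then at 23.4, 22.3 and 23.7 CPM (-0.21), and Sec61g at 2.49, 2.64 and 2.10 and 2.90, 2.42 and 2.58 CPM was not called. Sec24d fell by 0.25 on the log2 scale, and Sec23b was not called (-0.018).

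Set side by side, 13 genes rose in Hepa1 and fell in MEFs. They were Canx, Uggt1, Pdia5, P4hb, Herpud1, Edem1, Edem3, Derl1, Os9, Sec61a1, Sec61b, Ssr1 and Sec24d. They make up 72.2% of the 18 that rose in Hepa1 and 48.1% of the 27 that fell in MEFs. Among the 12042 genes tested in both cell types, 917 rose in Hepa1 and fell in MEFs, 25.9% and 27.5% of the respective calls. Of the whole list 73.0% fell in MEFs, near the 72.2% among the genes that rose in Hepa1. Of the 10 genes not called in Hepa1, 8 fell in MEFs. A link between the 2 responses within the list was not tested. With no scaling beyond total counts 8 of the 13 remained, since Canx, Uggt1, Herpud1, Os9 and Sec61a1 lost their MEF calls (adjusted p from 0.061 to 0.538, edgeR), and Hyou1 joined them, for 9 genes. Another 6 genes fell in both, namely Ern1, Hsp90b1, Manf, Calr, Pdia4 and Sel1l. They are 66.7% of the 9 that fell in Hepa1 and 22.2% of the 27 that fell in MEFs, against 35.0% and 37.5% over all genes, and without scaling 4 of the 6 remained, not Ern1 and Sel1l. Hspa5, Sdf2l1 and Ero1l fell in Hepa1 and were not called in MEFs.

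The difference of the responses was tested directly, as the log2 change in MEFs minus that in Hepa1 over all 12 libraries. Of 37 genes, 6 had a MEF response above the Hepa1 response and 22 one below it, against 20.9% and 23.3% of all genes tested. At least 1.5-fold, the counts were 0 and 5, against 7.27% and 8.88%. The count of 0 was the same with edgeR at an unadjusted p under 0.05, DESeq2 and limma-voom. The median difference of the list was -0.24, against -0.027 over all genes. This comparison shares its libraries with both media comparisons and adds the test of their difference, not further evidence for either.

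The 5 genes past 1.5-fold were Pdia5, 3 genes of the translocon and Sec24d. Pdia5 differed by -1.06 (SE 0.061, adjusted p = 4.85e-19, edgeR), Ssr1 by -0.74, Sec61b by -0.72, Sec61a1 by -0.71 and Sec24d by -0.70. Dnajb9 (-0.55), Uggt1 (-0.52), Xbp1 (-0.41), Creld2 (-0.38), Hyou1 (-0.37) and Atf6 (-0.31) also had lower responses in MEFs. On the other side stood genes that fell further in Hepa1. Hspa5 differed by 0.51 (SE 0.058, adjusted p = 4.86e-10, edgeR), Ern1 by 0.38, Hsp90b1 by 0.23 and Ero1l by 0.19. The call of Sdf2l1 (0.32, adjusted p = 0.0148) was lost without Hepa1 control replicate 3 (0.22, adjusted p = 0.0604), MEF ferroptotic replicate 1 (0.0627) or MEF ferroptotic replicate 3 (0.0864), and in DESeq2 and limma-voom (0.0849 and 0.0711). That of Pdia4 (0.13) was lost without Hepa1 control replicate 3 or ferroptotic replicate 2 (0.0677 and 0.109), and that of Pdia3 (-0.14) without Hepa1 control replicate 1 or ferroptotic replicate 1 (0.0717 and 0.0526). Without Hepa1 control replicate 3, or without Hepa1 ferroptotic replicate 2, Dnajb11 and Syvn1 were called as well (differences from -0.14 to -0.15). Calr fell in both cell types, and its responses differed by 0.049 (SE 0.053, adjusted p = 0.498, edgeR), which does not show that they were equal.

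Genes with an ERSE moved both ways in Hepa1, and in MEFs those called all fell. Of the 10, 9 were tested in Hepa1. There Creld2, Dnajc3, Canx and Syvn1 rose (44.4%) and Hspa5, Hsp90b1 and Calr fell (33.3%), while Pdia6 and Ero1b were not called. Over all genes tested in Hepa1, 29.3% rose and 28.8% fell. Among the 22 genes of the promoter table without an ERSE, 12 rose (54.5%) and 4 fell (18.2%) in Hepa1. In MEFs 5 of the 9 fell (Hsp90b1, Calr, Canx, Pdia6 and Ero1b) and 0 rose, against 17 falls and 0 rises among the 22. The falls came to 55.6% and 77.3%, against 27.2% of all genes tested in MEFs falling and 27.8% rising. Herpud1, with its ERSE-II, rose in Hepa1 and fell in MEFs, and so did Sec24d, with its UPRE core. Of 24 other genes with an ERSE that matched the count table, 7 were tested in Hepa1, with 3 rises and 1 fall, and 8 in MEFs, with 3 rises and 2 falls. These sets are small, and their gaps to the shares over all genes were not tested.

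A wider list of 116 further genes of the secretory pathway was read in the same fits. In Hepa1 67 of 112 tested rose (59.8%) and 18 fell (16.1%), against 29.3% and 28.8% of all genes tested, with a median log2 change of 0.17. In MEFs 14 of 116 rose (12.1%) and 66 fell (56.9%), against 27.8% and 27.2% of all genes, and the median change was -0.12. For the difference of responses, 78 of 116 (67.2%) had a lower and 12 (10.3%) a higher response in MEFs, against 23.3% and 20.9% of all genes. By role, other folding enzymes had 19 rises and 0 falls of 22 tested in Hepa1, and 2 rises and 14 falls of 24 in MEFs. The oligosaccharyl transferase and glycan trimming genes had 10 rises and 1 fall of 14 in Hepa1 and 1 rise and 10 falls of 15 in MEFs. Genes of COPII and ER exit had 13 rises and 2 falls of 17 in Hepa1 and 1 rise and 12 falls of 17 in MEFs. Signal recognition and translocon genes had 13 rises and 2 falls of 20 in Hepa1 and 1 rise and 9 falls of 20 in MEFs. Other ERAD genes had 4 rises (21.1%) and 6 falls (31.6%) of 19 in Hepa1, near the shares over all genes, and 5 rises (26.3%) and 9 falls (47.4%) of 19 in MEFs. The differences between roles were not tested.

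**Figure D5:**
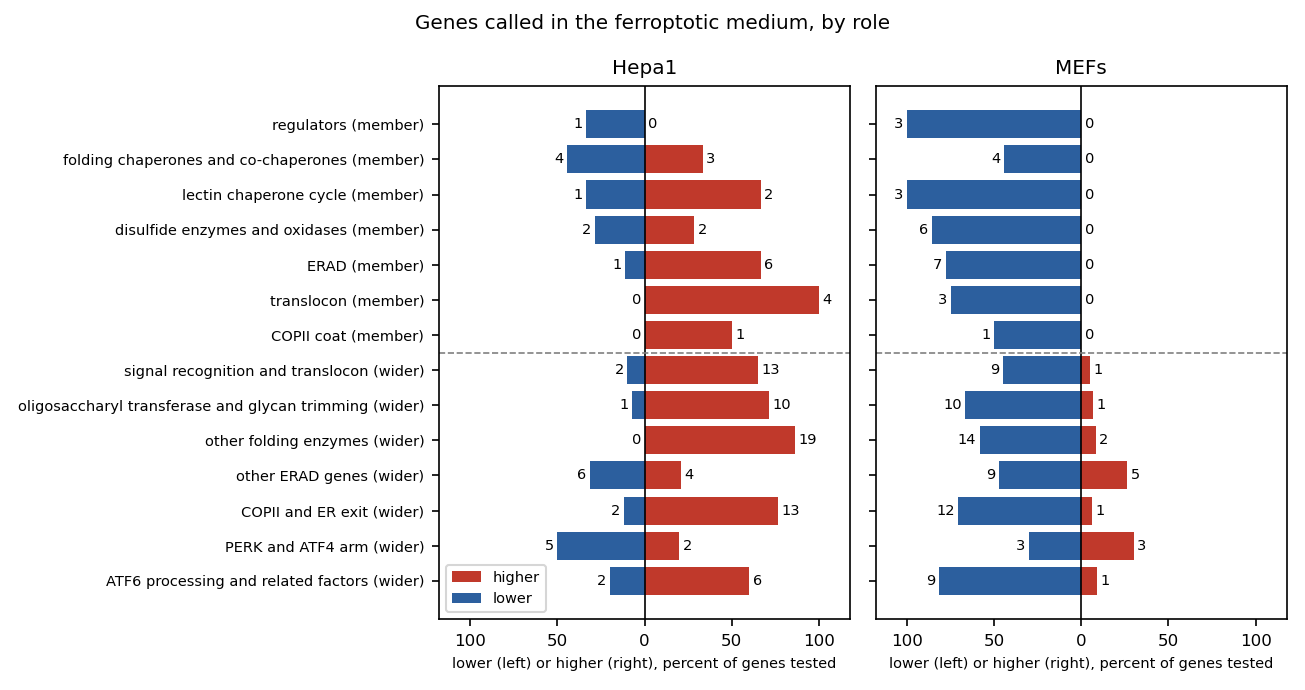
Percent of tested genes called lower (left, blue) or higher (right, red) in ferroptotic medium, by role, for the 38 genes (above the dashed line) and the wider list of 116 (below it), with the number of genes at each bar. Red bars dominate in most roles in Hepa1 and blue bars in MEFs, while the PERK and ATF4 arm has 2 rises and 5 falls of 10 in Hepa1 and 3 of each in MEFs, and other ERAD genes have 4 rises and 6 falls of 19 in Hepa1.

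The rises of the wider list with the smallest adjusted p in Hepa1 were those of genes at the translocon. Ostc and Rpn2, subunits of the oligosaccharyl transferase that attaches glycans to proteins as they enter the ER, rose by 0.64 and 0.54, and Rpn1 by 0.53. Ssr2, a partner of Ssr1, rose by 0.59, from 193 ± 4.20 to 289.8 ± 4.42 CPM (SD, n = 3). In MEFs Rpn1, Rpn2 and Ostc fell by 0.26, 0.12 and 0.14 on the log2 scale, and Ssr2 was not called (-0.025). The leading falls in MEFs were those of the signal peptidase subunit gene Spcs3 (-0.83), the sulfhydryl oxidase gene Qsox1 (-0.70), the cargo receptor gene Lman1 (-0.45) and Creb3l2 (-0.44), which encodes a transcription factor of secretory load. In Hepa1 Qsox1, Lman1 and Creb3l2 rose by 0.35, 0.49 and 0.53.

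The PERK and ATF4 arm, which slows translation and drives stress genes, was mixed, with 2 rises and 5 falls of 10 in Hepa1 and 3 rises and 3 falls of 10 in MEFs, the latter near the shares over all genes. Ddit3, the gene of the stress factor CHOP, was at 266, 254 and 289.8 CPM in control Hepa1 libraries and at 201, 206 and 204 CPM in ferroptotic ones (log2 change -0.40, SE 0.039, adjusted p = 8.76e-10). In MEFs it was at 28.5, 29.9 and 30.4 and then at 53.7, 55.0 and 54.1 CPM (log2 change 0.87, SE 0.046, adjusted p = 8.71e-23). Neither pair of groups overlapped, and the difference of the responses was 1.28 (SE 0.064, adjusted p = 3.24e-21, edgeR). The symbol Ddit3 has 2 Ensembl genes that share exon sequence on the same strand, and the one with the most reads was used. It also overlaps exons of Mars and Gm4189 on the other strand, and such reads were not told apart. Ppp1r15a, the gene of GADD34, which ends the translation block, fell by 0.64 on the log2 scale in Hepa1 and was not called in MEFs (0.029, adjusted p = 0.618, edgeR). Atf4 was called in neither cell type (changes of -0.042 in Hepa1 and -0.057 in MEFs). Eif2ak3, the gene of PERK itself, and Trib3, a target of ATF4 and CHOP, rose in Hepa1 by 0.40 and 0.32, and Trib3 rose in MEFs by 0.30 as well. Atf3, a stress-induced factor, had the largest rise of the arm in MEFs, from 1.05, 1.41 and 0.879 to 2.13, 2.56 and 4.24 CPM (log2 change 1.42, SE 0.22), and fell by 0.21 on the log2 scale in Hepa1. Chac1 and Nupr1 fell in both cell types, and Ppp1r15b fell in MEFs. The other leading falls in Hepa1 were those of Wfs1 (-0.44) and of Mbtps2 (-0.32), the gene of a protease that cuts ATF6. The other leading rises in MEFs were those of Atf6b (0.36), Ufd1 (0.35) and Erp29 (0.24).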

How the data were processed

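The authors deposited raw read counts per Ensembl gene for 12 libraries. The submitters' processing notes name STAR 2.7.10a, HTSeq 0.9.1, Trimmomatic 0.39 and FastQC 0.11.9, with the build GRCm38 (mm10). The release of the annotation and the setting for strand were not given in the sources used here, and the kit names no strand-specific variant, so overlapping genes were not told apart (8 of the 38 overlap an exon on the other strand, 3 on their own). Calr has an annotated pseudogene, with which it could share reads. Libraries were made from 100 ng of RNA. The 5 HTSeq summary lines were set apart, with 2.00 to 2.58% of counts on no gene.

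Each cell type's 6 libraries, and all 12 for the other comparisons, were fitted over all genes with edgeR 4.0.16 in R 4.3.3 (filterByExpr, TMM, quasi-likelihood F-test, Benjamini-Hochberg). Adjusted p-values in the text are edgeR's unless another tool is named. The standard error (SE) of a log2 change was derived from this F-test, as the size of the change divided by the square root of F. CPM are normalised within the cell type unless called plain or normalised over 12 libraries. Alternatives were RLE scaling, no scaling, DESeq2 1.42.0, limma-voom (limma 3.58.1), other filters, a stricter threshold, 1 fit over 12 libraries for the media comparisons, a replicate block and leaving out each library. Replicate pairs differed by 1.33 to 3.87 chi-square units per degree of freedom, more than counting noise alone between reads of the same library would give. These values cannot tell separate cultures from separate preparations of the same RNA. The script was tested on simulated data.

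Members and lists were chosen with earlier results of these data known. Values in every library are given for 13 preset genes and for the called members with the largest changes (4 per direction and media comparison, 3 between cell types). From the wider list the 4 genes per direction with the smallest adjusted p are named. Others named from it (Rpn1, Rpn2, Ostc and Ssr2 in MEFs, Qsox1, Lman1 and Creb3l2 in Hepa1, Ppp1r15a in MEFs, and Atf4, Eif2ak3, Trib3, Atf3, Chac1, Nupr1 and Ppp1r15b) were chosen after their values were seen. A planned look at protein ends was not run.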

Additional observations from a re-analysis of the deposited data

Results flagged for a closer look

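The test of the difference between the responses of the cell types picked out 28 of the 37 genes tested, with the log2 change in MEFs minus that in Hepa1 given here. At least 1.5-fold below the Hepa1 response were Pdia5 (-1.06), Ssr1 (-0.74), Sec61b (-0.72), Sec61a1 (-0.71) and Sec24d (-0.70). Next below it were Dnajb9 (-0.55), Uggt1 (-0.52), Edem3 (-0.47), P4hb (-0.43), Edem1 (-0.41), Xbp1 (-0.41), Edem2 (-0.39), Creld2 (-0.38) and Hyou1 (-0.37). Smaller differences below it were those of Derl1 (-0.33), Atf6 (-0.31), Pdia6 (-0.25), Os9 (-0.24), Canx (-0.22), Herpud1 (-0.18), Dnajc3 (-0.16) and Pdia3 (-0.14). Above the Hepa1 response were Hspa5 (0.51), Ern1 (0.38), Sdf2l1 (0.32), Hsp90b1 (0.23), Ero1l (0.19) and Pdia4 (0.13). Adjusted p-values (edgeR) ran from 4.85e-19 for Pdia5 to 0.0283 for Pdia4.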

How the results depend on the processing

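Of the genes tested, 30 of 37 in Hepa1, 27 in MEFs, 32 for the difference of responses and 21 between cell types kept their direction and their side of the threshold under every alternative run. The setting that moved most was no scaling beyond total counts. With it, 2 genes of the list rose at least 1.5-fold in Hepa1 (Sec61a1 and Sec61g), 2 rose in MEFs and 0 fell there at least 1.5-fold, and 24 of the wider list rose in MEFs. Between cell types the list then had 5 genes higher in MEFs (2 of them at least 1.5-fold) and 28 higher in Hepa1, and the wider list 44 and 66. Differences between cell types turned to -0.49 for Dnajb9, -0.085 for Dnajb11, -0.37 for Uggt1, -0.13 for Pdia3, -0.12 for P4hb, -0.54 for Edem1, -0.31 for Os9 and -0.39 for Sec24d. This setting leaves out the scaling for library make-up by its construction. The list's shares of counts moved to 2.00, 1.75, 1.5 and 1.30% on normalised counts. Leaving out 1 library gave 14 to 18 rises and 9 to 10 falls of the list in Hepa1, 0 to 1 rise of at least 1.5-fold there, 25 to 26 falls in MEFs, 11 to 13 genes with a rise in Hepa1 and a fall in MEFs, 5 to 7 with a fall in both, and 4 to 6 higher and 21 to 24 lower responses in MEFs. The replicate block gave 17 rises and 9 falls in Hepa1, 27 falls in MEFs, and 6 higher and 22 lower responses. It ended the call of Dnajb11 in Hepa1 (0.088, adjusted p = 0.0554, edgeR) and no other. Whether the numbers pair the libraries is not settled. Deviations of same-numbered libraries correlated only at -0.083 to 0.037. Each correlated best with its own number in 3 of 3 MEF and 0 of 3 Hepa1 replicates. DESeq2 called 16 rises and 9 falls in Hepa1 and 25 falls in MEFs. Low counts limit Derl3 (0 to 6 reads in a library), Sec61g and Ero1b, and 3 libraries a group limit every test.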
